A study of Mus musculus with 3 samples.

Results

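The core circadian clock genes analysed here were Clock, Arntl, Npas2, Per1, Per2, Per3, Cry1, Cry2, Nfil3 and Csnk1e, 10 genes chosen by name among 21887 protein-coding gene records, and all 10 were found in the annotation. For each gene, every called methylation peak in the gene record plus 2000 bp on each side was taken. The assay was MeDIP-seq of epididymal adipose tissue: DNA fragments carrying methylated cytosine are captured with an antibody and sequenced, and stretches where they pile up are listed as peaks. The mice were C57BL/6J males that entered the study at 6 weeks of age, were harvested at 16 weeks and had spent 10 weeks on a normal diet (ND, 10% of energy as fat), on a high-fat diet (HFD, 60% of energy as fat), or on that same 60% fat diet while drinking water that contained 20 μg/mL folic acid (FAD). The agent that separates FAD from HFD is therefore folic acid alone, while FAD differs from ND in fat and in folic acid. There was 1 library per diet, so no difference below has a replicate check, and no test across mice could be made. The sources used here do not say whether a library came from 1 mouse or a pool, or at what time of day fat was taken.

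The ND list held 101532 peaks, the HFD list 135124 and the FAD list 95501, with median widths of 507, 587 and 447 bp. The lists do not give the sequencing depth. Each peak carries the authors' score, at least 50 in every list, which ranks peaks within a list and whose scale is not stated. Scores of different libraries are printed side by side below without reading a change from them. A fat pad holds many cell types, and a different mix of cells cannot be told apart from different methylation within a cell type. Genes that mark adipocytes held a peak at 4, 8 and 5 of 9 in ND, HFD and FAD, and leukocyte markers at 4, 6 and 4 of 7. Endothelial markers held one at all 4 in each library, mesothelial markers at 2 of 3 in each, and epididymal epithelial markers at 0, 2 and 1 of 4. Of all protein-coding genes, 64.5%, 71.4% and 61.9% held a peak in ND, HFD and FAD, so this share too was highest in HFD, the longest list. Peaks give no level of expression, so the tissue label could not be checked by them, and the part of cell makeup in the counts below was not tested.

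The mammalian clock is a feedback loop of transcription. CLOCK, or its relative NPAS2, pairs with BMAL1, the product of Arntl, and the pair activates genes through E-box elements, the Per and Cry genes among them. PER and CRY proteins then inhibit that pair. Casein kinase 1 epsilon, encoded by Csnk1e, phosphorylates PER proteins, and NFIL3 is a repressor that binds D-box elements. In fat the clock is known for timing lipid storage and release across the day.

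The start sites of the clock genes lay outside every called peak. RefSeq (GRCm38.p6, the assembly of mm10) lists 16 start windows for 9 of the 10 genes, each running from 250 bases before to 50 bases after a start, and Per2 has no entry. The windows held between 9 and 54 CpG dinucleotides, with a median of 37.5, against a median of 13 over 21263 start windows of protein-coding genes. No peak of any library overlapped any of the 16 windows. The background was also low: peaks overlapped 2.53%, 3.37% and 2.11% of all start windows in ND, HFD and FAD, and 1.88%, 2.21% and 1.76% of the 12067 with at least 10 CpG, with 3.37%, 4.88% and 2.57% of those with fewer. The count of 0 is therefore near the background share and sets the clock genes apart in no way. These 4 windows are shown because they carry elements through which the clock loop acts. They hold 16 (Per1), 38 (Cry1), 41 (Per3) and 22 (Arntl) CpG and, like the rest of the 16, no peak. Capitals mark the matched element: the E-box CACGTG in Per1 and Cry1, the D-box TTATGTAA in Per3 and a RORE, the element bound by ROR and REV-ERB receptors, in Arntl. Both strands were searched, the E-box reads the same on both, and no window held more than 1 kind of element.
Per1 (chr11:69098699-69098998, plus strand): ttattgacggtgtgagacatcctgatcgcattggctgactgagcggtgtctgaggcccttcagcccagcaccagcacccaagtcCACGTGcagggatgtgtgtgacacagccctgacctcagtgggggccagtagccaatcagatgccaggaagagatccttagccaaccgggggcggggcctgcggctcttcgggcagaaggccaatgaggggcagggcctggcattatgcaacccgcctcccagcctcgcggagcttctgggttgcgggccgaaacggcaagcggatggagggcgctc
Cry1 (chr10:85185005-85185304, minus strand): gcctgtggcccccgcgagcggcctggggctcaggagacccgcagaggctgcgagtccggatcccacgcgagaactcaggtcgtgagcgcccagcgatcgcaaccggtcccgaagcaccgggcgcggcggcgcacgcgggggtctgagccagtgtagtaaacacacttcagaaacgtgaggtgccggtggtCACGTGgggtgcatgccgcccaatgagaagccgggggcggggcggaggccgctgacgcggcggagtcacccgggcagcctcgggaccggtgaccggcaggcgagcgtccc
Per3 (chr4:151044616-151044915, minus strand): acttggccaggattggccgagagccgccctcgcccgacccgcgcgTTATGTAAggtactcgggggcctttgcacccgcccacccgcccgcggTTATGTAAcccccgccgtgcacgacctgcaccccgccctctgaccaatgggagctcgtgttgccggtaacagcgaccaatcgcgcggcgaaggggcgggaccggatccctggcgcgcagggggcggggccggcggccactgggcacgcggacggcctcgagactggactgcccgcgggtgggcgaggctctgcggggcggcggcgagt
Arntl (chr7:113207261-113207560, plus strand): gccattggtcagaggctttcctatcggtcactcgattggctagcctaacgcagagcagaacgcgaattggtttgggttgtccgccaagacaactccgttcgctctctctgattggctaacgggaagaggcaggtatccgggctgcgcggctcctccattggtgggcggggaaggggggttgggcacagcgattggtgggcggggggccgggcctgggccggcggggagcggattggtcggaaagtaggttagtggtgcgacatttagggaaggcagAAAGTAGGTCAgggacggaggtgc
The Per1 E-box began 166 bases before its start site and the Cry1 E-box 60 bases before. Per3 held 2 D-boxes, beginning 205 and 158 bases before the start, and the Arntl RORE, AAAGTAGGTCA, began 26 bases after it. Over all 32851 windows of the RefSeq table, 7.15% held the E-box, 0.938% the D-box and 0.384% a RORE. A match is a description of the letters and not a bound site.

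The nearest peak to a start window lay between 1821 and 25189 bp away in ND, between 1142 and 20281 bp in HFD and between 2737 and 32796 bp in FAD. Per1, whose product is a rapidly induced inhibitor of the loop, had peaks of all 3 libraries close to its downstream start, at 1821 bp in ND, 1716 bp in HFD and 2737 bp in FAD. The start of Cry1 lay far from any peak, at 19625, 19766 and 32796 bp. Cry2 was the member whose distances differed most between libraries, with an HFD peak 1142 bp from the start window and the nearest ND and FAD peaks 14308 and 20174 bp away.

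**Figure D1:**
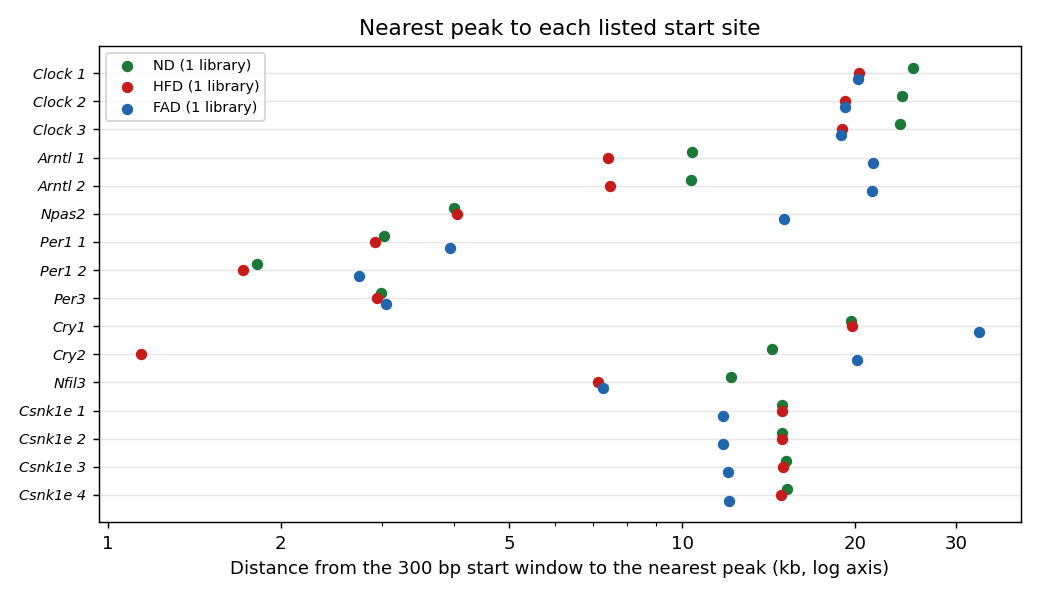
Distance in kb, on a log axis, from each of the 16 listed start windows (rows, numbered within a gene by coordinate) to the nearest peak of the ND, HFD and FAD libraries (points, 1 library each). No window touches a peak, and the HFD point of Cry2 at 1142 bp is the closest of all.

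A wider window ran from 2000 bp outside to 500 bp inside the upstream edge of the gene record, as set by strand. The listed starts of Clock, Arntl, Npas2, Per1, Nfil3 and Csnk1e lie further inside the record than this window reaches. For Arntl the record edge is chr7:113178471 and the listed starts are 113207465 and 113207511. In that window HFD held a peak at Cry2 and Csnk1e, and ND and FAD at no gene whose strand is known. Such a peak was found at 10.1%, 14.5% and 9.09% of 17492 protein-coding genes with a known strand in the ND, HFD and FAD lists. The Cry2 peak (chr2:92435461-92436080, score 118) was found in HFD only, 12547 bp from the nearest ND peak and 18413 bp from the nearest FAD peak. The Csnk1e peak (chr15:79457257-79457799, score 116) was also found in HFD only, 15537 bp and 15526 bp from the nearest ND and FAD peaks, and it also lay within 2000 bp of the lncRNA gene Gm41359. It sits at the edge of the record, 14864 bp or more from the 4 start windows that RefSeq lists for Csnk1e, so with listed starts the HFD count was 1, Cry2 alone. For Per2, whose strand the tables used here do not give, an ND peak (chr1:91461070-91461500, score 63.0) lay at the high-coordinate end, with the nearest HFD and FAD peaks 1777 and 1761 bp away.

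All 10 clock genes held at least 1 peak in each library. The background was 64.5%, 71.4% and 61.9% of protein-coding genes for the ND, HFD and FAD lists, and 57.3% for all 3 at once. The records ran from 14858 bp for Per1 to 169539 bp for Npas2, and among the 11834 genes at least as long as Per1 these shares were 83.7%, 89.5%, 81.6% and 77.8%. The 10 genes held 46 peaks in ND, 72 in HFD and 39 in FAD. Per 10 kb of window the median member held 0.827, 1.12 and 0.526 peaks, against 0.45, 0.659 and 0.407 over genes at least as long as Per1. Of the members' peaks, 22, 30 and 17 were in the top-scoring 50% of their own list, so 47.8%, 41.7% and 43.6%.

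**Figure D2:**
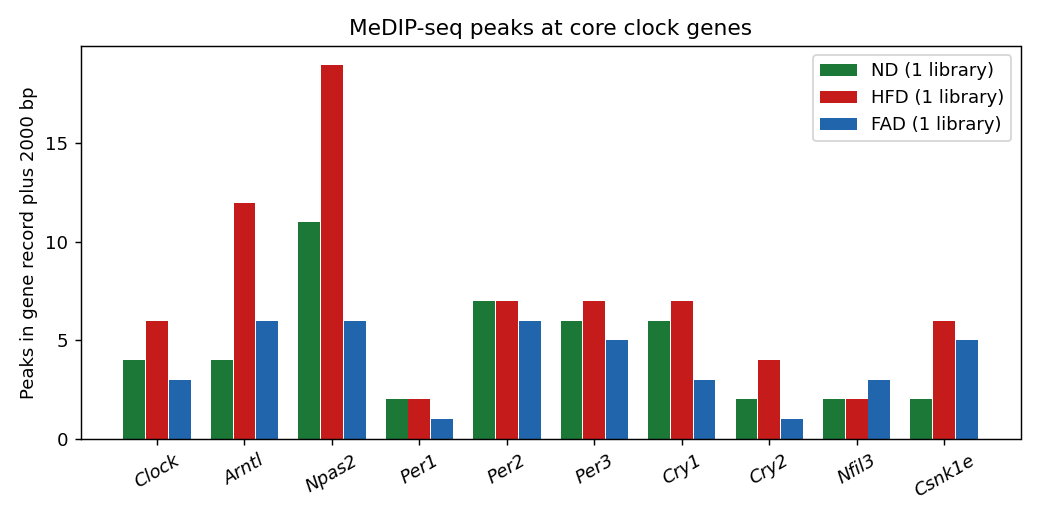
Number of peaks (vertical axis) in the record plus 2000 bp of each clock gene in the ND, HFD and FAD libraries (bars, 1 library each, no error bar possible). Npas2 with 11, 19 and 6 peaks and Arntl with 4, 12 and 6 show the widest spread between libraries.

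The activators Clock, Arntl and Npas2 held 19 peaks in ND, 37 in HFD and 15 in FAD. Clock, which encodes the DNA-binding partner of BMAL1, had 4, 6 and 3 peaks. Its strongest region (chr5:76275812-76277849) lay nearer the start than the end of the gene and held the highest HFD and FAD scores of any clock gene, 445 in HFD and 333 in FAD, with 383 in ND. A region toward the 3′ end (chr5:76223490-76224480) was also present in all 3 libraries, with scores of 325, 230 and 208. HFD alone added a pair of weak regions beside shared ones, with scores of 59.7 and 71.5, of which the first lay 350 bp from an FAD peak and 405 bp from an ND peak and the other 789 bp from an ND peak. The second of them and the region shared by ND and HFD beside it (chr5:76231259-76231999, scores 55.5 and 93.9) lay within 2000 bp of the pseudogene Ube2n-ps1.

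Arntl, which encodes BMAL1, the obligate partner in the loop, had 4 peaks in ND, 12 in HFD and 6 in FAD. All 4 ND peaks overlapped HFD peaks. The regions common to the 3 libraries were chr7:113228860-113229268 (scores 151, 306 and 109 in ND, HFD and FAD), chr7:113299063-113299789 (204, 247 and 209) and chr7:113315231-113315767 (228, 127 and 60.7). The last lies 3′ of Arntl and also in or within 2000 bp of the record of the neighbouring gene Btbd10, so it cannot be assigned to Arntl alone. HFD and FAD, but not ND, shared 3 regions of Arntl: chr7:113263242-113263946, chr7:113265377-113265897 and chr7:113296446-113296757, with HFD scores of 51.7, 126 and 94.3 and FAD scores of 64.0, 69.9 and 85.3. The first of these also lay within 2000 bp of the lncRNA gene Gm33721. A further 5 regions were found in HFD alone, all with scores between 50.1 and 71.1, and the strongest of them (chr7:113257312-113257811) also lay near Gm33721.

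Npas2, the CLOCK relative, is the longest of the 10 genes and had the most peaks in ND and HFD, with 11, 19 and 6. Its strongest region (chr1:39271820-39272551), near the middle of the gene, was present in all 3 libraries with scores of 389, 290 and 260, the ND value being the highest of any clock gene. ND and HFD shared 5 regions that had no FAD peak, with ND scores from 66.3 to 110, and HFD and FAD shared 2 that had no ND peak. HFD alone held 8 regions. The strongest of those (chr1:39286956-39287726, score 177, 771 bp wide) ranked at or above 76.7% of the HFD list, and the nearest ND and FAD peaks lay 6021 and 11165 bp away. ND alone held 2 weak regions, with scores of 56.9 and 66.5. Of the peaks at Npas2, 5 lay within 2000 bp of the pseudogenes Gm17904 and Gm3617 inside the gene.

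**Figure D3:**
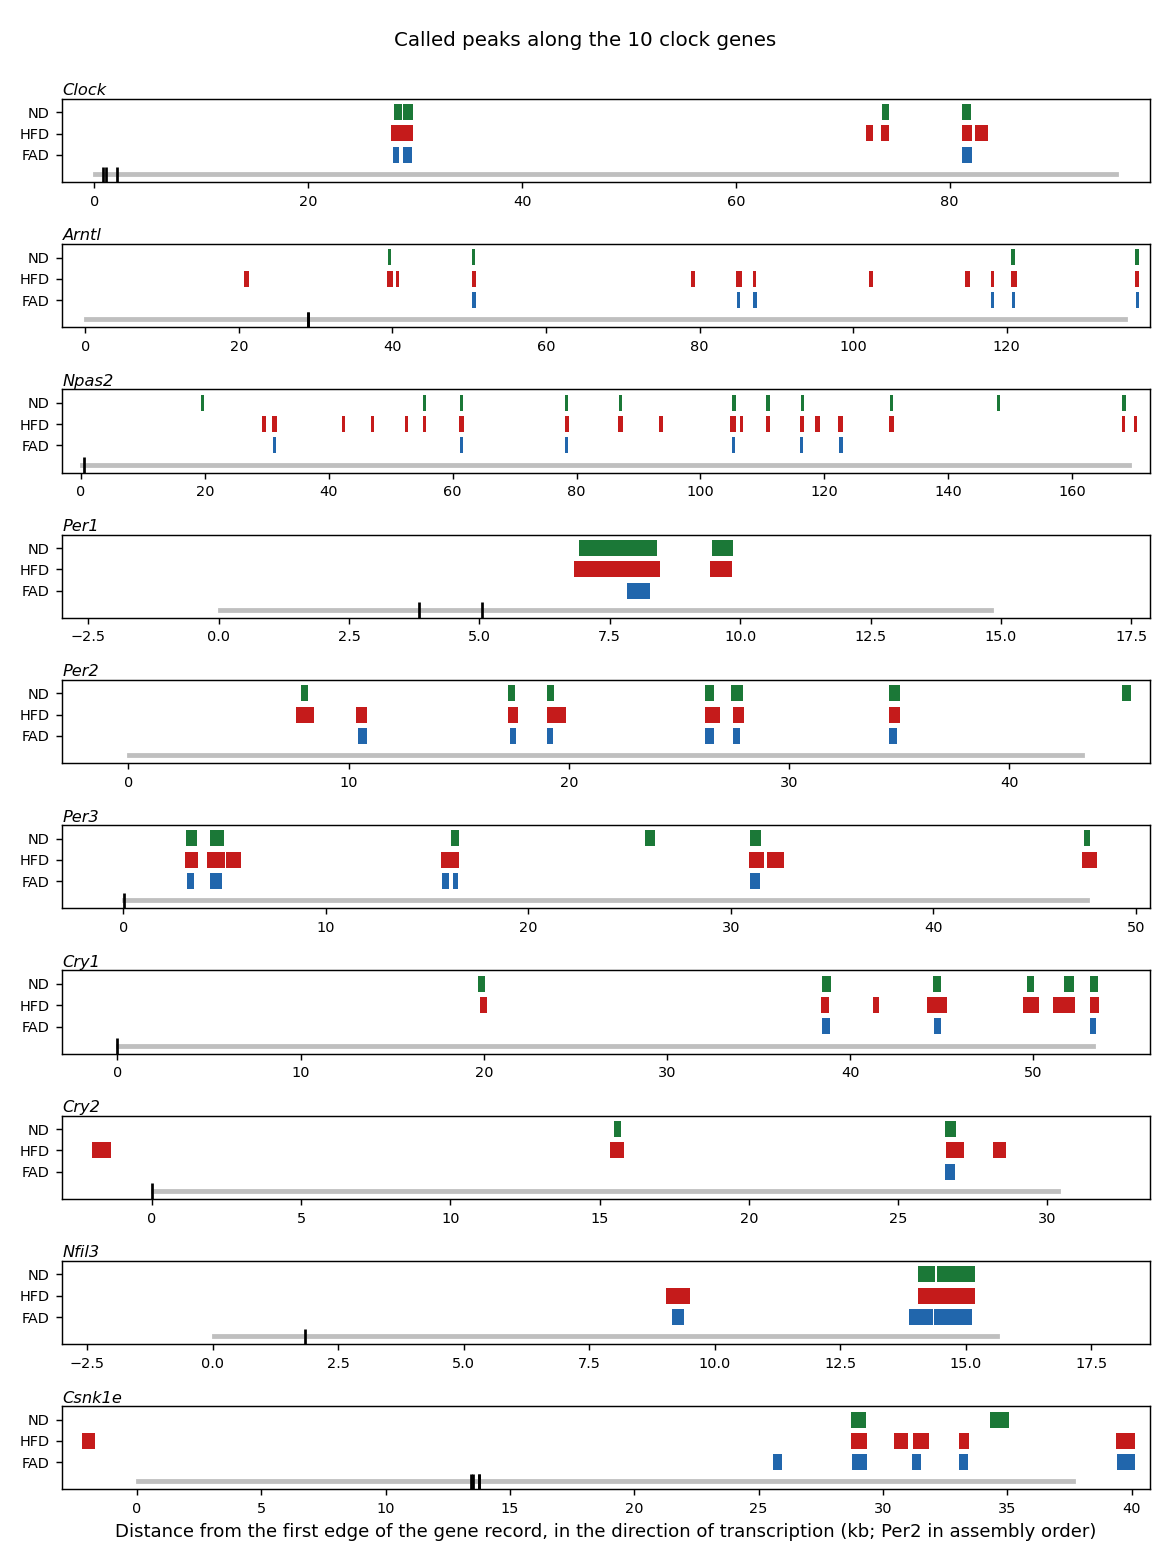
Position of every peak along each clock gene (horizontal axis, kb from the first edge of the record in the direction of transcription; Per2 in assembly order), with ND, HFD and FAD peaks in 3 rows, the record as a grey bar and listed start sites as black ticks. Narrow peaks in long genes are drawn at a minimum width. The start sites are free of peaks, and of the 22 regions in HFD alone with the full lists, which number 7 with lists of equal length, 8 are in Npas2 and 5 in Arntl.

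The inhibitors Per1, Per2, Per3, Cry1 and Cry2 held 23, 27 and 16 peaks. Per1 had 2, 2 and 1 peaks, with centres between 51.4 and 65.0% of the way along the record. Its main region (chr11:69101917-69103579) was 1496 bp wide in ND and 1663 bp in HFD, with scores of 167 and 209, but 442 bp in FAD, with a score of 53.9, and only 4.6% of the FAD list scored as low or lower. The other region (chr11:69104532-69104963) had scores of 67.6 in ND and 73.6 in HFD and no FAD peak. The FAD peak of Per1 thus covered less DNA than either other library's peak at the same place and stood near the lowest score of its list. Its width was near the FAD list median of 447 bp, and over the whole lists FAD peaks were the narrowest, with medians of 507 bp in ND and 587 bp in HFD.

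Per2, a core inhibitor known from a familial disorder of sleep timing in people, had 7, 7 and 6 peaks. At 1.48, 1.48 and 1.27 peaks per 10 kb its density was at or above that of 91.0%, 85.8% and 89.3% of protein-coding genes in ND, HFD and FAD. This rank is over genes of all lengths, those without a peak included, and was not computed among genes at least as long as Per1. Of its 8 regions, 5 were present in all 3 libraries, with scores from 78.4 to 134 in ND, 73.5 to 180 in HFD and 98.0 to 164 in FAD. The best ND score lay at chr1:91434969-91435829, the best HFD score at chr1:91443337-91443941 and the best FAD score at chr1:91442135-91442848. A region at chr1:91426312-91426819 had peaks in HFD (61.4) and FAD (74.6) but not in ND, and one at chr1:91423595-91424412 in ND (92.3) and HFD (95.5) but not in FAD. In each library 3 of the Per2 peaks also lay in or within 2000 bp of the lncRNA gene Gm35591, which overlaps Per2.

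Per3, the remaining period gene, had 6, 7 and 5 peaks and 4 regions common to all libraries. The strongest HFD and FAD peaks of Per3 lay in 1 region (chr4:151028104-151028991), with ND, HFD and FAD scores of 148, 283 and 139, and there FAD had 2 narrow peaks in place of 1. A region across the 3′ edge of the record (chr4:150996645-150997363) had scores of 228 in ND and 134 in HFD and no FAD peak. That region also lies in or within 2000 bp of the record of Uts2, which encodes the peptide urotensin 2, and cannot be assigned to Per3 alone. Per3 was also the only member of the 9 with a known strand that had a peak centre in the first 10% of its record, where chr4:151041021-151041670 had scores of 66.5, 85.2 and 69.8 and its HFD peak lay 2946 bp from the start window.

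Cry1, which encodes a strong inhibitor of CLOCK and BMAL1, had 6, 7 and 3 peaks. All 6 ND peaks and all 3 FAD peaks overlapped HFD peaks. The 3 regions common to all libraries were weak, with scores of at most 66.7 in ND, 96.3 in HFD and 86.6 in FAD, the last across the 3′ edge of the record (chr10:85131476-85131969). ND and HFD shared 3 more that had no FAD peak. Of these, chr10:85134753-85135626 held the best ND score of Cry1 (107, with 113 in HFD), and chr10:85164902-85165380 the best HFD score (173, with 82.2 in ND). Cry2, the other cryptochrome gene, had 2, 4 and 1 peaks. Its 1 region common to all libraries (chr2:92406862-92407496) had scores of 143, 159 and 116, and chr2:92418274-92418723 was shared by ND and HFD with scores of 111 and 111. The ND and FAD peaks of Cry2, with 2 of its 4 HFD peaks, also lay in or within 2000 bp of the overlapping lncRNA gene D930015M05Rik.

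Nfil3 and Csnk1e held 4 peaks in ND, 8 in HFD and 8 in FAD. Nfil3 had 2, 2 and 3 peaks, and FAD exceeded HFD there through a split peak. In its region toward the 3′ end (chr13:52967685-52969016), HFD had 1 peak of 1146 bp with a score of 291, while ND and FAD each had 2 shorter peaks, with best scores of 213 and 129. That region also lay within 2000 bp of the lncRNA gene Gm40950. The other region of Nfil3 (chr13:52973380-52973859) had peaks in HFD (105) and FAD (82.6) and none in ND.

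Csnk1e had 2 peaks in ND, 6 in HFD and 5 in FAD, and only 1 of its 8 regions (chr15:79426216-79426881, scores 147, 150 and 56.5) was common to all libraries. HFD and FAD shared 3 regions that ND lacked: chr15:79415448-79416218 (131 and 97.1), chr15:79422132-79422541 (56.5 and 102) and chr15:79423728-79424423 (61.6 and 53.8). The first of these lies outside the record, beyond its 3′ edge. The HFD peaks scoring 56.5 and 61.6 are absent when lists are of equal length, where the lowest HFD score is 73.2. ND alone held a region with a score of 50.4 and FAD alone one with 53.4, both near the lowest score in the lists. Of the Csnk1e peaks, 5 lay in or within 2000 bp of the lncRNA gene Gm16059, those of the region common to all libraries among them. Every Csnk1e peak inside the record had its centre between 68.3 and 91.9% of the way along it.

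The first comparison, HFD with ND, asks how clock gene methylation differed with dietary fat. No member had a peak in HFD and none in ND, where 8.81% of protein-coding genes did, and none had the reverse, against 1.93%. HFD held more peaks than ND at 7 members, namely Clock, Arntl, Npas2, Per3, Cry1, Cry2 and Csnk1e, and the same number at Per1, Per2 and Nfil3. Over all protein-coding genes 41.6% held more in HFD and 7.79% more in ND, and among genes at least as long as Per1 these shares were 59.4% and 9.06%. The ND list was 75.1% as long as the HFD list, and at the members ND had 63.9% as many peaks. When each list was limited to its 95501 top-scoring peaks the members held 42 peaks in ND and 49 in HFD. More were in HFD at 5 members and in ND at Per2. Over genes of all lengths these shares were 22.7% and 19.0%, and they were not computed for genes at least as long as Per1. With the lists so limited, Csnk1e had 1 peak in ND and 3 in HFD, Arntl 4 and 6, and Npas2 11 and 13.

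The second comparison, FAD with HFD, asks how folic acid on the same high-fat diet went with clock gene methylation. No member had a peak in HFD and none in FAD (background 10.9%), or in FAD and none in HFD (1.39%). HFD held more peaks at 9 members and FAD at Nfil3 alone, where the background shares were 45.9% and 6.02%, or 64.5% and 6.66% among genes at least as long as Per1. The widest gaps were at Npas2, with 19 peaks in HFD and 6 in FAD, and Arntl, with 12 and 6. The FAD list was 70.7% as long as the HFD list, and at the members FAD had 54.2% as many peaks. With lists of 95501 peaks the members held 49 in HFD and 39 in FAD, with more in HFD at 6 members and more in FAD at Nfil3 and Csnk1e. Over genes of all lengths these shares were 24.3% and 17.5%, and they were not computed for genes at least as long as Per1. With these lists Npas2 had 13 and 6 peaks, and Arntl had 6 in each.

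The third comparison sets FAD beside ND, which differ in both fat and folic acid. FAD held more peaks than ND at Arntl, Csnk1e and Nfil3 and fewer at the other 7 members, where 16.6% of all protein-coding genes held more in FAD and 26.4% more in ND, or 22.9% and 36.8% among genes at least as long as Per1. With lists of 95501 peaks FAD again held more at Arntl, Nfil3 and Csnk1e and ND at 6. Over genes of all lengths these shares were 19.4% and 22.6%, and they were not computed for genes at least as long as Per1. No member had a peak in 1 of these libraries and none in the other, against 4.03% of genes with a peak in FAD only and 6.7% in ND only. Csnk1e had 2 peaks in ND and 5 in FAD, and Npas2 had 11 and 6. The 3 comparisons share libraries pairwise, so their counts are not independent.

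Joining overlapping peaks gave 77 regions at the 10 genes. Of these, 25 (32.5%) were found in all 3 libraries, where 39.1% of 79751 regions at protein-coding genes were. ND and HFD alone shared 14 (18.2%, background 12.2%), HFD and FAD alone shared 10 (13%, background 8.7%), and ND and FAD alone shared 0 (background 2.1%). Regions in HFD alone numbered 22 (28.6%, background 24.6%), in ND alone 5 (6.49%, background 7.45%) and in FAD alone 1 (1.3%, background 5.81%). With lists of 95501 peaks, 7 regions were in HFD alone and 16 in any 1 library, in place of 22 and 28. The background of regions was not computed with those lists. An HFD peak was thus present in 71 of the 77 regions, or 92.2% (Wilson 95% interval 84.0 to 96.4%, covering counting error over regions only), against 84.6% of all such regions. An ND peak was present in 57.1% (46.0 to 67.6%), against 60.8% of all such regions, and an FAD peak in 46.8% (36.0 to 57.8%), against 55.7%. Regions in all 3 libraries held all but 1 of the 19 best scores of 200 or more, the other being the ND score of the Per3 region shared with Uts2. Of the 22 regions in HFD alone, 3 scored in the top 50% of the HFD list: those at Npas2 (177), Cry2 (118) and Csnk1e (116) given above. A peak of another library lay within 1000 bp of 7 of the 22 and within 5000 bp of 14. Scores and distances of HFD-alone regions at other genes were not counted, so these counts describe the members without setting them apart.

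**Figure D4:**
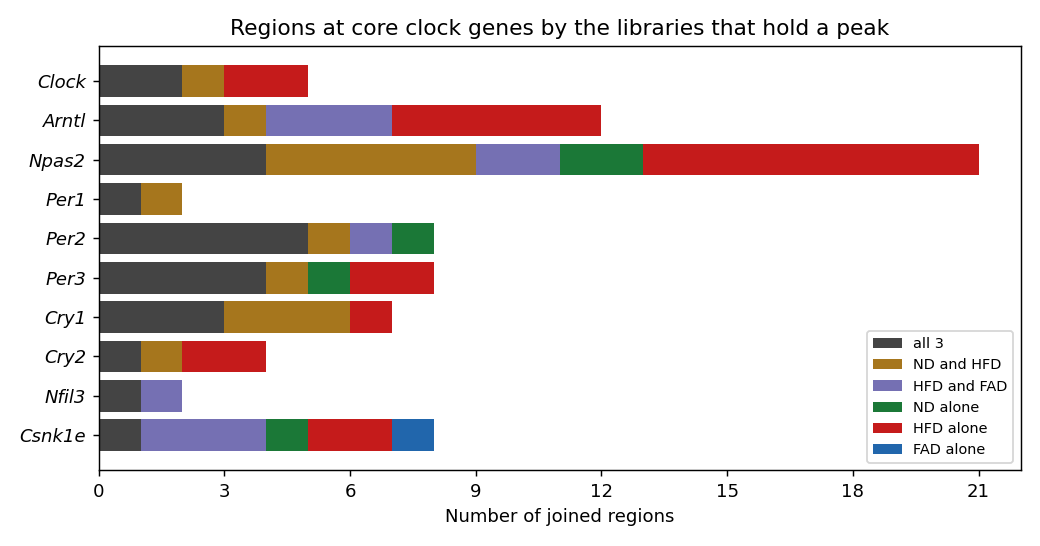
Number of joined regions at each clock gene (horizontal axis), coloured by which libraries hold a peak in them. With the full lists, regions in HFD alone number 8 at Npas2 and 5 at Arntl (7 in all, in place of 22, with lists of equal length). Also with the full lists, Per2 has 5 of its 8 regions in all 3 libraries. Csnk1e has 3 of its 8 in HFD and FAD only, not all of which keep their HFD peak with lists of equal length.

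As a share of each library's peaks at the members, 89.1% of ND peaks (Wilson 95% interval 77.0 to 95.3%) and 97.4% of FAD peaks (86.8 to 99.5%) overlapped an HFD peak, while 55.6% of HFD peaks (44.1 to 66.5%) overlapped an ND peak and 50% (38.7 to 61.3%) an FAD peak. Over the whole lists the same shares were 83.4%, 84.5%, 61.9% and 58.6%. Only 1 FAD peak, at Csnk1e, had no HFD peak over it. ND peaks overlapped FAD in 58.7% (44.3 to 71.7%) and FAD peaks overlapped ND in 69.2% (53.6 to 81.4%), against 69.4% and 74.4% over the lists. The intervals cover counting error over peaks only. Peaks of 1 gene and 1 library are not independent, so no excess over the list is read from them. With lists of equal length, 76.9% of FAD peaks and 85.7% of ND peaks overlapped an HFD peak. With 50% reciprocal overlap these shares were 69.2% and 65.2%.

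Positions along the genes were taken at the centre of each peak and measured from the upstream edge of the record, not from a listed start. The listed starts of Arntl, Per1 and Csnk1e lie well inside their records, so positions from those starts would be lower. Whether a peak lies beyond the midpoint can depend on this. At Per1, with a record of 14858 bp, the centres of the widest ND and HFD peaks lay 2617 and 2596 bp from the nearest listed start. At the 9 members with a known strand, 24 of 36 ND peaks inside the record had their centre beyond its midpoint, with 39 of 58 in HFD and 20 of 30 in FAD, or 66.7%, 67.2% and 66.7%. Over all protein-coding genes with a known strand these shares were 57.0%, 55.8% and 56.7%. In each library 2 of these peaks, both at Per3, had their centre in the first 10% of a record, where the shares over all genes were 6.83%, 7.23% and 6.93%. At Per1, Cry2, Nfil3 and Csnk1e every peak inside the record had its centre beyond the midpoint, at Clock 7 of 13 and at Npas2 20 of 35 did, and at Per3 5 of 16. These peaks share genes and are not independent.

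Of 20 other genes of the clock pathway, 17 held an ND peak, 18 an HFD peak and 15 an FAD peak. The background shares were 64.5%, 71.4% and 61.9% of all protein-coding genes, and 83.7%, 89.5% and 81.6% of genes at least as long as Per1. Most but not all of the 20 reach that length. These 20 genes held 87, 121 and 66 peaks in all. Their medians were 0.665, 0.884 and 0.353 per 10 kb, against 0.388, 0.617 and 0.32 over all protein-coding genes. Over genes at least as long as Per1 the medians were 0.45, 0.659 and 0.407, so the FAD value of the 20 was below that background. HFD held more peaks than ND at 8 and fewer at 1, where the background shares were 41.6% and 7.79%. Among genes at least as long as Per1 these shares were 59.4% and 9.06%. HFD held more than FAD at 11 and fewer at none. The background shares there were 45.9% and 6.02%, or 64.5% and 6.66% among genes at least as long as Per1. Rora, a nuclear receptor gene that activates Arntl, had the most peaks, with 30, 50 and 26, followed by Btrc (14, 19 and 10), a ubiquitin ligase gene that acts on PER proteins. Next were Arntl2 (8, 8 and 5), a relative of Arntl with more peaks over the 3 libraries together, and Rorb (6, 10 and 3), with more in HFD. Nr1d1, which encodes the repressor REV-ERB alpha, had 1 peak in ND and in HFD and none in FAD. Usp2, a deubiquitinase gene, had 2, 3 and 0. Ciart had no peak in any library.

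Genes whose peak numbers were most like those of the members with most HFD peaks were Lrch1 for Npas2 (11, 18 and 6 peaks), Rb1 for Arntl (4, 11 and 6) and Pmepa1 for Cry1 (6, 7 and 3). Cry1 tied at 7 HFD peaks with Per2 and Per3, and was taken as the longest of them. Likeness was the sum of absolute differences in peak number over the 3 libraries, which was 1, 1 and 0. Ties were broken by length, and 7 genes were as close to Arntl and 9 as close to Cry1.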

How the data were processed

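MeDIP-seq peak lists of 3 libraries, 1 per diet and grouped by the labels, were used as deposited by the authors. Build mm10 is given in the submitters' processing notes, and the peak names in the files carry the prefix MACS. The sources used here do not give the caller's version, settings or control, the aligner, the depth or the handling of duplicates. Each peak's score is the authors' deposited value, with no stated scale. Each library has its own list, and an absent peak means only that none was listed there, which sequencing depth can also decide.

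Gene records came from RefSeq (GRCm38.p6; no exons, so exonic and intronic positions were not analysed here), with strand and start sites from the RefSeq promoter table. A peak counted when it overlapped a window by 1 bp. Overlapping peaks of the 3 lists were joined into regions, and a library was present when it had a peak in the region. Counts are set beside the same counts over all protein-coding genes. With 1 library per diet there is no p-value. Named peaks were the best in each library and gene, regions of 1 library in the top-scoring 50% of its list, peaks at gene starts and peaks shared with another record within 2000 bp; of the other clock genes, those absent from a library and the 3 with most peaks, except results that are not reported here. Further regions were named after their values were seen. Members and lists were chosen with earlier results of these data known. Listed start sites, peaks shared with neighbours, positions along genes, CpG counts, motifs and the background of genes at least as long as Per1 were added after seeing the data. Alternatives were flanks of 0 and 5000 bp, the top-scoring 50% of each list, equal lists of 95501 peaks, midpoints, 50% reciprocal overlap, joining within 500 bp and start windows of 1000 bp. The overlap code was tested on simulated data and against bedtools 2.31.1. The work used pandas 2.3.3 with numpy 2.4.6, scipy 1.17.1 and matplotlib 3.10.9 under Python 3.11.15.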

Additional observations from a re-analysis of the deposited data

How the results depend on the processing

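In all, 173 values were recomputed over 30 results. Of these, 150 stayed within 1.5 times the main count or inside the interval of the main share, and 23 moved. A reversal of direction was not scored. In the top-scoring 50% of each list the members held 22, 30 and 17 peaks in ND, HFD and FAD, 2 members had a peak in HFD and none in FAD, and 11 of the other clock genes had an ND peak. Regions in 3, 2 and 1 libraries then numbered 10, 12 and 13, those in HFD alone 9, the share of FAD peaks over HFD was 82.4%, and no member had an ND peak at its start. These lists are shorter by construction, and the same counts over all protein-coding genes were not computed with them. Whether the counts at the clock genes are unusual therefore cannot be read from these lists. With equal-length lists, regions in 1 library numbered 16 and in HFD alone 7, 71.4% of HFD peaks overlapped ND and 76.9% of FAD peaks overlapped HFD. With 50% reciprocal overlap, 48 regions were in 1 library, and the overlap shares were 65.2% of ND peaks in HFD, 41.7% and 37.5% of HFD peaks in ND and FAD, and 69.2% of FAD peaks in HFD. With 1000 bp on each side of the start, 0 members had a peak in ND and 0 in HFD, and with listed start sites 1 had one in HFD. No paired analysis was possible because each diet has 1 library, and for the same reason no replicate could be left out. Depth is unknown, so an absent weak peak cannot be read as absent methylation.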
